A study of Mus musculus with 6 samples.

Results

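The corticotropin-releasing hormone (CRH) family comprises the peptide genes Crh, Ucn, Ucn2 and Ucn3, the receptor genes Crhr1 and Crhr2 and the binding-protein gene Crhbp. These 7 genes were taken by symbol from the 22180 genes that the array table names, and each had 1 probe set that carried its symbol alone. Affymetrix arrays measured RNA of pancreatic islets from mice aged 5 weeks, on the C57BL/6J background and labelled female. Both groups carried floxed Sel1L alleles (Sel1L f/f). The 3 arrays labelled wildtype (also given as C57BL/6J) held islets of control littermates described as Sel1L f/f alone, and the 3 arrays of β cell-specific Sel1L-deficient islets came from mice that also carried Ins1Cre. In that strain Cre is inserted at the Ins1 locus, so the Cre allele and the loss of Sel1L cannot be told apart in this design. Islets were picked by hand and kept overnight in culture, so they held the other islet cell types and some cells from outside the islet. How many animals each array pooled is not stated in the labels, so the p-values reflect only how these samples spread, which may be technical.

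CRH is best known as the hypothalamic peptide that drives corticotropin release, and the urocortins are its relatives in brain and peripheral tissues. CRHR1 binds CRH and urocortin 1, CRHR2 binds all 3 urocortins and is the receptor of urocortins 2 and 3, and both receptors couple to the stimulatory G protein and cAMP. In mouse islets urocortin 3 is packed with insulin in mature β cells, is released with it, and acts on CRHR2 of δ cells, which then release somatostatin; its gene is widely used as a marker of β-cell maturity.

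RefSeq promoter windows (GRCm38.p6, 250 bases before to 50 after a gene's start) matched 5 of the 7 members, all but Ucn2 and Crh. The windows of Ucn3 and Ucn are shown because these members lay above the 95th percentile of mostly silent genes on all 6 arrays. Of the pair only Ucn3 differed by genotype. Capitals mark TAAT, the core of homeodomain sites, in Ucn3 (chr13:3945300-3945599, minus strand) and TGACGTCA, the cAMP response element, in Ucn (chr5:31138846-31139145, minus strand), each searched on both strands, so that ATTA is TAAT on the other strand.
Ucn3: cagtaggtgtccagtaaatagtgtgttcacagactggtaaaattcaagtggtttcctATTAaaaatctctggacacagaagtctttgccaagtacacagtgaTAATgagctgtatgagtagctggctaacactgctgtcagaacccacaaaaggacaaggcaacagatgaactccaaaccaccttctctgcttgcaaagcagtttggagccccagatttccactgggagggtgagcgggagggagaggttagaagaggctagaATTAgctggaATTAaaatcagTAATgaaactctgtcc
Ucn: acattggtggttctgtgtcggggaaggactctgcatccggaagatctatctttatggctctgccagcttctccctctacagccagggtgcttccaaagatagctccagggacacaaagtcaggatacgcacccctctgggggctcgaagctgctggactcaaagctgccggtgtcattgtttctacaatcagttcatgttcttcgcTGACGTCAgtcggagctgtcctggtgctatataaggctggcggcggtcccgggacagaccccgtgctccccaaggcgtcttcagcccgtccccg

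The Ucn3 window held 5 TAAT matches, while 58% of all 32851 promoter windows held at least 1 and 6.86% held 5 or more. Those at 193 to 190 and 148 to 145 bases lay before the start, and the rest lay after it. The Crhbp window held 3 TAAT matches. The Ucn window held TGACGTCA from 44 to 37 bases before the start, a match found in 1.79% of windows, and no TAAT. In the Ucn3 window no match was found to TGACGTCA, to its core TGACG (20.8% of windows, and lying within TGACGTCA), to TGCTGAC, one arm of the Maf recognition element (4.67%), or to the TATA box TATAAA (13.6%). GC content was 44.7% in the Ucn3 window and 57.3% in the Ucn window, against a median of 52.7% over all windows. Those of Crhr1, Crhr2 and Crhbp had 75%, 59% and 48%. A match says only that these letters occur in the window.

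Array medians lay between 3.08 and 3.16. The islet hormone genes Ins2, Gcg, Sst and Ppy lay above 10 on all arrays. Sel1l, the targeted gene, read 8.46, 8.56 and 8.76 in wildtype and 7.73, 7.65 and 7.68 in Sel1L-deficient islets, so each array followed its label (limma adjusted p = 0.0312). The position of its probes against the deleted exons was not analysed here. Although all samples are labelled female, replicate 3 of each genotype had high Y-linked transcripts, with means over 3 genes of 6.75 and 6.36 against 1.44 to 1.84 on the other 4 arrays. The table has no detection calls. As a guide to low values, the 1105 odorant receptor genes, mostly silent outside the nose, had 95th percentiles between 2.52 and 2.68 on the 6 arrays and medians between 1.52 and 1.6.

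Of the 7 members 1 fell in Sel1L-deficient islets, 0 rose and 6 did not pass the threshold of an adjusted p under 0.05. The 1 that fell was Ucn3. Over all genes tested 0.153% fell and 0.0902% rose by the same rule, 0.243% together. At an unadjusted p under 0.05, 1 of the 7 members stood against 9.48% of all genes. The median difference was -0.03 over the members and 0.00 over all genes. The other 6 differences lay between -0.17 and 0.18.

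**Figure D1:**
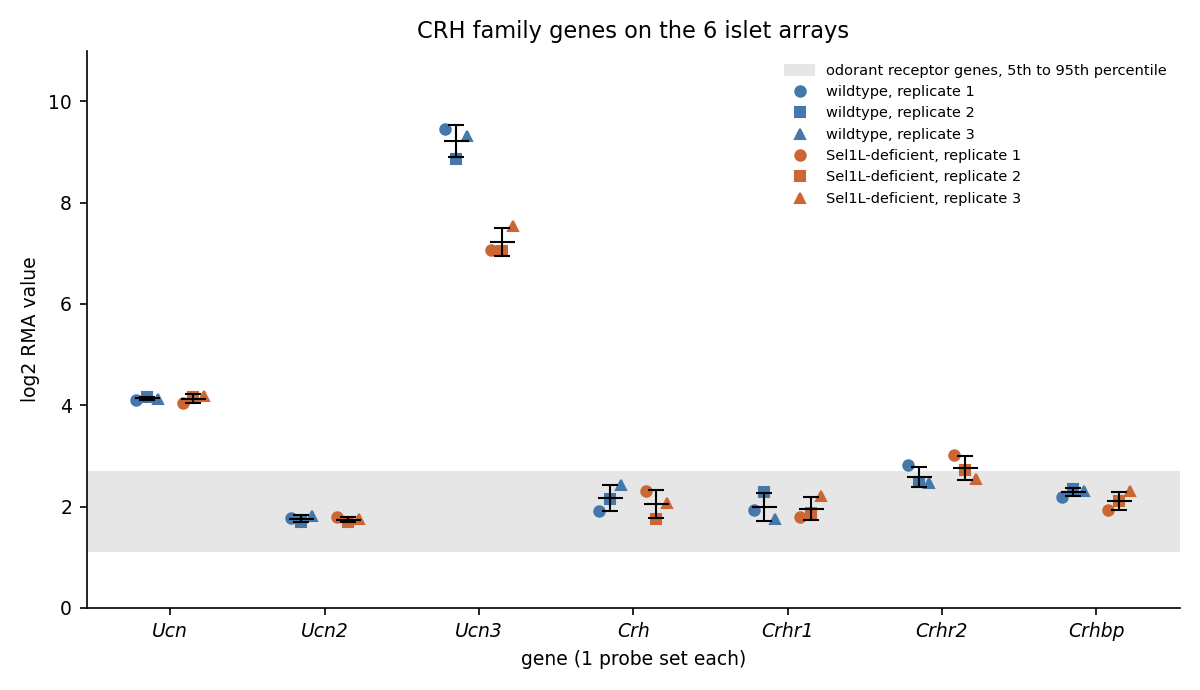
Log2 RMA values (vertical axis) of the 7 CRH family genes on each of the 6 arrays. Each array has 1 symbol, with the group mean and SD bars. The grey band spans the 5th to 95th percentile of the odorant receptor genes over the arrays. Ucn3 lies between 8.87 and 9.46 in wildtype and between 7.05 and 7.54 in Sel1L-deficient islets, while the other members overlap between genotypes.

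Ucn3, which encodes urocortin 3, read 9.46, 8.87 and 9.32 on the wildtype arrays. On the Sel1L-deficient arrays it read 7.07, 7.05 and 7.54. All 3 Sel1L-deficient values lay below all 3 wildtype values, as in 7.84% of all genes. Within wildtype replicate 2 was low, and within the Sel1L-deficient group replicate 3 was high. The group means were 9.22 ± 0.31 and 7.22 ± 0.28 (SD, n = 3 each), a difference of -1.995 ± 0.19 (SE) on the log2 scale, or 3.99-fold lower, with a 95% interval of 2.95-fold to 5.39-fold (limma adjusted p = 0.013). Among the 34 genes that fell, 2 had larger differences, Tmem215 and Mafa. Even the lowest Ucn3 value lay well above the 95th percentile of the odorant receptor genes, so the transcript remained measured in Sel1L-deficient islets. An exact two-sided permutation test of this gene alone gave p = 0.1, the smallest that 3 against 3 arrays allow.

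The size of the Ucn3 difference varied little with the arrays used, while its place against the threshold did. Over 16 alternative analyses the log2 difference lay between -1.87 and -2.17, with limma adjusted p from 0.00118 to 0.148, and 10 passed. The call was lost without wildtype replicate 1 (adjusted p = 0.059) or 3 (0.0731), without Sel1L-deficient replicate 1 (0.0896) or 2 (0.0686), with 1 row for every probe set of the table (0.148), and on the 4 arrays without Y-linked transcripts (0.112). On those 4 arrays the difference was -2.10.

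Ucn, which encodes urocortin 1, was the other peptide gene above the odorant receptor 95th percentile on all 6 arrays. It read 4.10, 4.17 and 4.13 in wildtype and 4.04, 4.17 and 4.19 in Sel1L-deficient islets. All wildtype values lay inside the range of the Sel1L-deficient ones, and the difference was -0.00118 ± 0.10 (SE; limma adjusted p = 1.00). The 95% interval of -0.23 to 0.22 leaves room for changes up to 1.17-fold in the array value.

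Ucn2 and Crh were low on every array. Ucn2, the gene of urocortin 2, read 1.77, 1.69 and 1.82 in wildtype and 1.79, 1.70 and 1.75 in Sel1L-deficient islets. Crh read 1.92, 2.16 and 2.43 in wildtype and 2.31, 1.75 and 2.08 in Sel1L-deficient islets. All of these values lay under the 95th percentile of the odorant receptor genes on the same array, and neither gene was separated from background. The differences were -0.02 with a 95% interval of -0.24 to 0.21 for Ucn2 and -0.12 with -0.53 to 0.29 for Crh (limma adjusted p = 0.976 and 0.887). A change near background would be compressed on this scale, so these intervals bound the array value and not the transcript.

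The receptor genes did not pass the threshold. Crhr2, the receptor through which urocortin 3 acts, read 2.82, 2.48 and 2.47 in wildtype and 3.02, 2.72 and 2.55 in Sel1L-deficient islets. It exceeded the odorant receptor 95th percentile on 3 arrays, replicate 1 of wildtype and replicates 1 and 2 of Sel1L-deficient islets, and lay under the array median on all 6. The difference was 0.18 ± 0.15 (SE) with a 95% interval of -0.18 to 0.53 (limma adjusted p = 0.794); it was 0.05 without Sel1L-deficient replicate 1 and 0.29 without wildtype replicate 1. Crhr1 read 1.92, 2.28 and 1.75 in wildtype and 1.79, 1.86 and 2.22 in Sel1L-deficient islets, all under the odorant receptor 95th percentile. Its difference was -0.03 with a 95% interval of -0.42 to 0.36 (limma adjusted p = 0.977), and it turned positive in 3 of 15 alternatives.

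Crhbp encodes the secreted protein that binds CRH and urocortin 1 and keeps them from the receptors. It read 2.19, 2.34 and 2.31 in wildtype and 1.93, 2.11 and 2.30 in Sel1L-deficient islets. The groups overlapped through Sel1L-deficient replicate 3, and every value lay under the odorant receptor 95th percentile. The difference was -0.17 ± 0.12 (SE), with a 95% interval of -0.45 to 0.11 (limma adjusted p = 0.74). It ranged from -0.26 to -0.08 over the arrays left out.

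**Figure D2:**
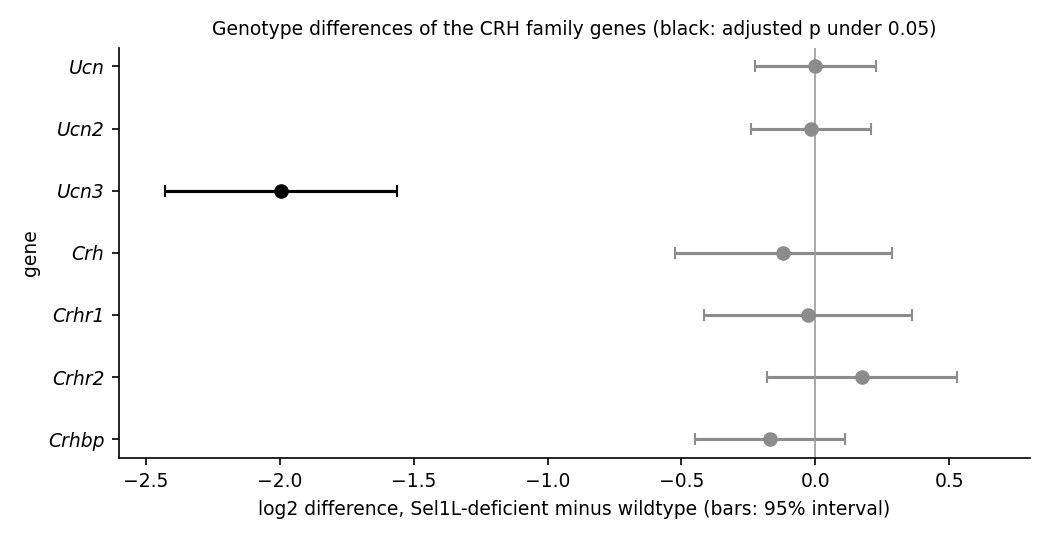
Log2 difference, Sel1L-deficient minus wildtype (horizontal axis), of each CRH family gene with its 95% interval from limma; black marks an adjusted p under 0.05. The Ucn3 interval runs from -2.43 to -1.56, and the other 6 intervals include 0.

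Ucn3 is made by β cells, so its values were set beside other β-cell genes on the same arrays. In whole islets, fewer β cells and less RNA per β cell cannot be told apart. The reference was the mean of 9 markers: Ins2, Iapp, Pdx1, Nkx6-1, Slc30a8, Glp1r, Gjd2, G6pc2 and Slc2a2. All 9 had lower means in Sel1L-deficient islets, with log2 differences from -0.06 (Glp1r) to -1.38 (Slc2a2). Of these G6pc2 and Slc2a2 fell. Ins1, where the Cre sits, was not analysed here. The marker mean read 10.1, 9.89 and 10.2 in wildtype and 9.52, 9.42 and 9.64 in Sel1L-deficient islets, a difference of -0.51. Ucn3 minus that mean read -0.61, -1.02 and -0.83 in wildtype and -2.45, -2.37 and -2.10 in Sel1L-deficient islets. The groups did not overlap, and the ratio of Ucn3 to these markers was 2.80-fold lower (log2 difference -1.48; exact two-sided permutation p = 0.1, the smallest possible). Relative to Iapp, Ins2 and Slc30a8 alone, genes of the β-cell granule, the difference was -1.78. Those 3 are bright, between 10.45 and 11.8, where array differences can be compressed.

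**Figure D3:**
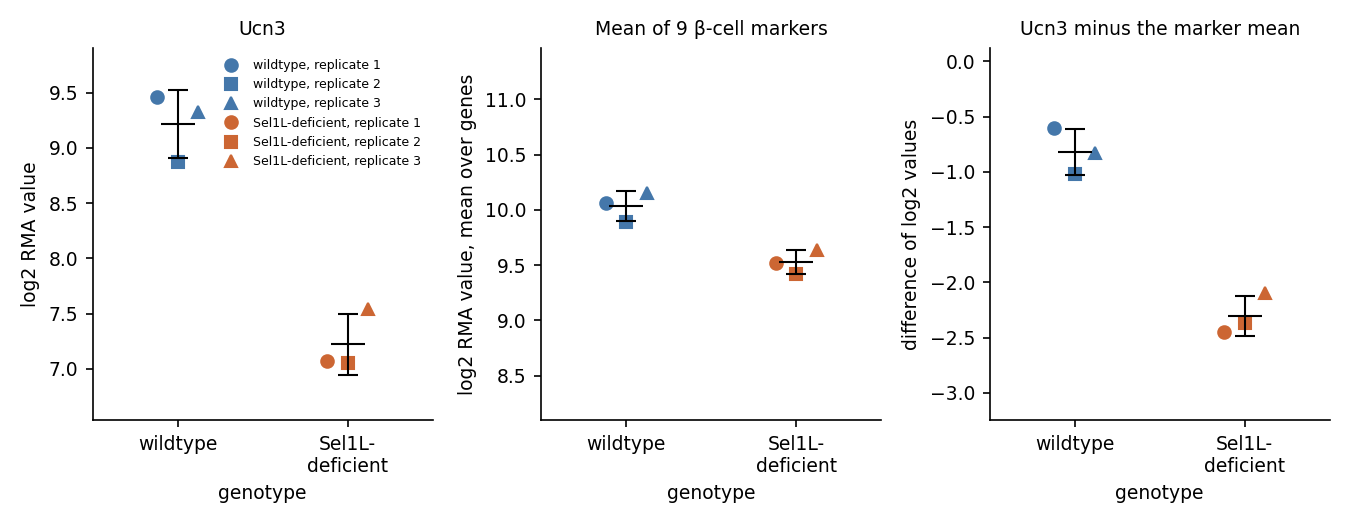
Ucn3 (left), the mean of 9 β-cell markers (centre) and Ucn3 minus that mean (right) on the 6 arrays, in log2 units, with group means and SD bars; the 3 vertical axes span equal ranges. The marker mean differs by -0.51 between genotypes and Ucn3 by -1.995.

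All 11 measured members of the β-cell marker list, Ucn3 and Mafa included, had lower means in Sel1L-deficient islets, and 4 fell, against 0.153% of all genes: Ucn3, Mafa, Slc2a2 and G6pc2. No marker of the other cell types passed limma's threshold (0 in each list), and 9.48% of all genes had an unadjusted p under 0.05. All 10 endothelial markers had higher means in Sel1L-deficient islets (7 at an unadjusted p under 0.05 in limma). The mean of their log2 values lay at 6.09 to 6.50 in wildtype and 6.59 to 6.78 in Sel1L-deficient islets. All 9 mesenchymal markers likewise had higher means (3 at an unadjusted p under 0.05), at 4.52 to 5.23 and 5.20 to 5.53. The 6 measured α-cell markers also had higher means (2 at an unadjusted p under 0.05), at 8.19 to 8.36 and 8.47 to 8.56. Acinar markers averaged 8.80, 8.17 and 9.82 in wildtype and 7.71, 7.42 and 9.78 in Sel1L-deficient islets (0 of 6 at an unadjusted p under 0.05). Replicate 3 was the highest in both groups, and on the other 4 arrays the Sel1L-deficient values lay below wildtype. All 6 measured acinar markers had lower means in Sel1L-deficient islets. The mean of the list differed by -0.13 for duct, -0.06 for leukocyte, 0.08 for Schwann, -0.07 for δ-cell and 0.20 for PP and ε-cell markers. All measured endothelial, α-cell and acinar markers lay above the odorant receptor 95th percentile on all 6 arrays, as did 8 of the 9 mesenchymal ones. Their part in the fall of Ucn3 was not tested.

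The search for genes near Ucn3 passed over odorant receptor genes, microRNA genes and gene models without a proper name. The 5 genes nearest to Ucn3 over the 6 arrays were sought by root mean square distance, with each gene centred on its own mean. They were Ppp1r1a, an inhibitor subunit of protein phosphatase 1, at 0.13, Tmem215 at 0.18, Sytl4, the gene of the granule-docking protein granuphilin, at 0.19, Mafa, a basic leucine zipper factor of mature β cells, at 0.22, and Plk3, a polo-like kinase, at 0.28. All 5 fell. A short distance to a gene with so large a difference requires a lower mean, though not a call. Ppp1r1a read 8.80, 8.27 and 8.71 in wildtype and 6.81, 6.48 and 7.08 in Sel1L-deficient islets. Like Ucn3, it was lowest in replicate 2 and highest in replicate 3 among the Sel1L-deficient arrays. The mean of the 9 β-cell markers had the same order, and a choice by nearness over these arrays favours it. Mafa read 8.66, 8.62 and 8.75, then 6.42, 6.64 and 6.64. Ucn3 minus Mafa, a quantity chosen after their values were seen, was 0.80, 0.25 and 0.57 in wildtype and 0.65, 0.41 and 0.90 in Sel1L-deficient islets. These overlapped, with a difference of 0.12. Mafa was chosen for its nearness to Ucn3, so no test is given.

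**Figure D4:**
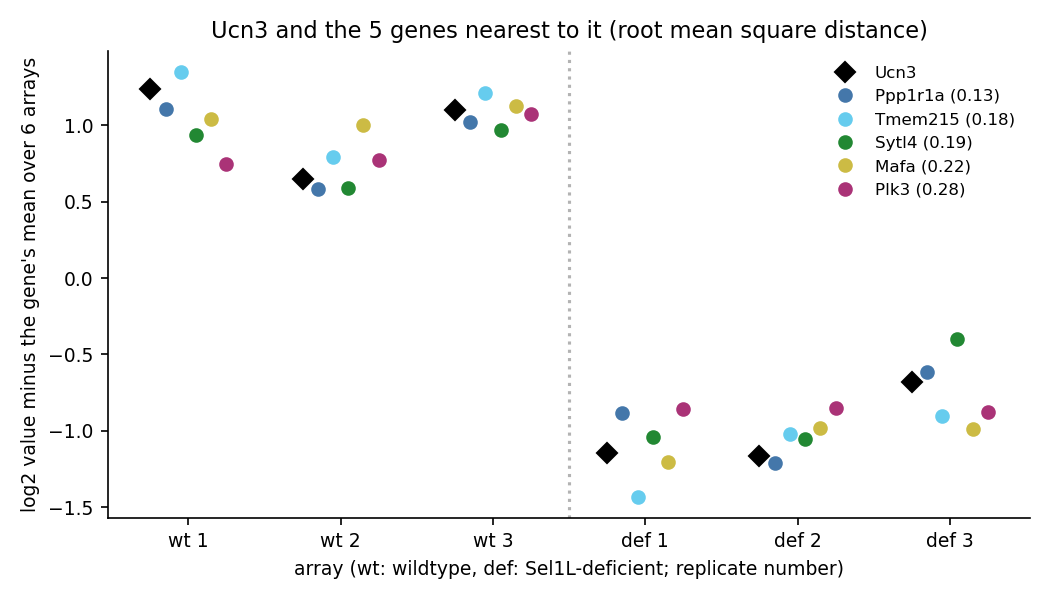
Centred log2 values (vertical axis, each gene minus its own mean) of Ucn3 and its 5 nearest genes on the 6 arrays; numbers in the legend are root mean square distances. Every one of the 6 genes lies above its mean on the wildtype arrays and below it on the Sel1L-deficient arrays.

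Genes around Ucn3 in the course of β-cell maturation were counted by list. Of 21 measured β-cell maturation genes 6 fell and 0 rose, against 0.153% and 0.0902% of all genes, with a median difference of -0.38. They were Mafa, Sytl4, Slc2a2, Pcsk1, Ero1b, an oxidase of the ER (named after its value was seen), and G6pc2, a glucose-6-phosphatase subunit of islets. Like the other lists, this one was chosen with earlier results of these data known. It shares Mafa, Slc2a2, G6pc2, Pdx1, Nkx6-1, Slc30a8, Glp1r and Gjd2 with the β-cell marker list. Pcsk1 is also in the peptide-processing list, so these counts and medians are not separate. Slc2a2, the gene of the glucose transporter GLUT2, read 10.5, 10.2 and 10.5 in wildtype and 9.05, 8.66 and 9.22 in Sel1L-deficient islets (limma adjusted p = 0.0265). The count was 1 when any array but Sel1L-deficient replicate 3 was left out, and 4 without that array. It was 1 with 1 row per probe set, and 0 on the 4 arrays without Y-linked transcripts (12 at an unadjusted p under 0.05 in limma). Of 14 immaturity genes 1 rose, Neurog3, which starts the endocrine program in the embryo, and 0 fell. It read 5.80, 5.76 and 5.73 in wildtype and 6.85, 7.09 and 6.74 in Sel1L-deficient islets (limma adjusted p = 0.0156), a call lost on leaving out any array but Sel1L-deficient replicate 3, on the 4 arrays, and with 1 row per probe set.

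Among 9 measured genes of propeptide processing and amidation 1 fell and 0 rose, against 0.153% and 0.0902% of all genes. It was Pcsk1, a proprotein convertase of the secretory granule, with 9.80, 9.78 and 10.1 in wildtype and 8.72, 8.69 and 9.10 in Sel1L-deficient islets (log2 difference -1.05 ± 0.15 SE, limma adjusted p = 0.041). That call was lost under the same alternatives as that of Neurog3. Pam, which amidates the ends of peptide hormones, had a difference of 0.11 (95% interval -0.12 to 0.33), and Pcsk6, a related convertase, one of 0.73 (limma adjusted p = 0.806 and 0.125). Pam and Pcsk6 were chosen after seeing their values. The list median was 0.10.

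Downstream of the receptors, 0 of 30 measured genes of Gs and cAMP signalling passed the limma threshold, against 0.243% of all genes. A count of 0 in a list of this size lies near that share, here and in the lists below. At an unadjusted p under 0.05 in limma stood 4, 2 in each direction, against 9.48% of all genes. The list median was 0.05. Prkacb, a catalytic subunit of protein kinase A, had a difference of -0.05 (95% interval -0.33 to 0.23). Pde3b, a phosphodiesterase that degrades cAMP, had one of 0.13 (-0.11 to 0.36). Of the 13 other class B1 receptors, the family of the CRH receptors, 0 passed, against 0.243% of all genes. At an unadjusted p under 0.05 stood 2, both lower, against 9.48% of all genes. Glp1r, the receptor of GLP-1, differed by -0.06 with a 95% interval of -0.29 to 0.18. Gipr, the receptor of the incretin GIP, read 7.03, 7.18 and 7.15 in wildtype and 6.55, 6.47 and 6.86 in Sel1L-deficient islets, below wildtype on all 3 arrays, as in 7.84% of all genes, and not past the threshold (limma adjusted p = 0.26).

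Sst encodes somatostatin, whose release urocortin 3 stimulates. It read 12.6, 12.5 and 12.5 in wildtype and 12.5, 12.5 and 12.4 in Sel1L-deficient islets, a difference of -0.03 with a 95% interval of -0.25 to 0.20. Its values lie near the top of the scale (13.0), where differences can be compressed. None of the 6 genes of somatostatin and its receptors passed (0 in limma, against 0.243% of all genes). At an unadjusted p under 0.05 stood 1, against 9.48% of all genes, and Sstr3, a somatostatin receptor, differed by -0.09. The 9 δ-cell markers had 0 past the threshold, against 0.243% of all genes, and a median of 0.00. At an unadjusted p under 0.05 stood 1, against 9.48% of all genes. It was Pdyn, named after its value was seen, with a difference of -0.97 (limma adjusted p = 0.279).

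Other peptide genes of islet and gut gave 0 of 22 past the limma threshold, against 0.243% of all genes, with a median of 0.01. At an unadjusted p under 0.05 stood 3, against 9.48% of all genes, 2 higher and 1 lower. The lower one was Pdyn, which had the largest fall in this list (-0.97). Pyy, the peptide YY gene, differed by 0.25 and Nucb2, which encodes the nesfatin precursor, by 0.38 (limma adjusted p = 0.535 and 0.246), both above wildtype on all 3 Sel1L-deficient arrays, as in 7.22% of all genes. Among the 15 genes of corticotropin, vasopressin and the glucocorticoid response 0 passed, with 0 at an unadjusted p under 0.05, against 0.243% and 9.48% of all genes. The difference of Nr3c1, the glucocorticoid receptor gene, was 0.07 (95% interval -0.16 to 0.31). That of Per1, a clock gene that glucocorticoids induce, was -0.38 (-0.80 to 0.04).

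**Figure D5:**
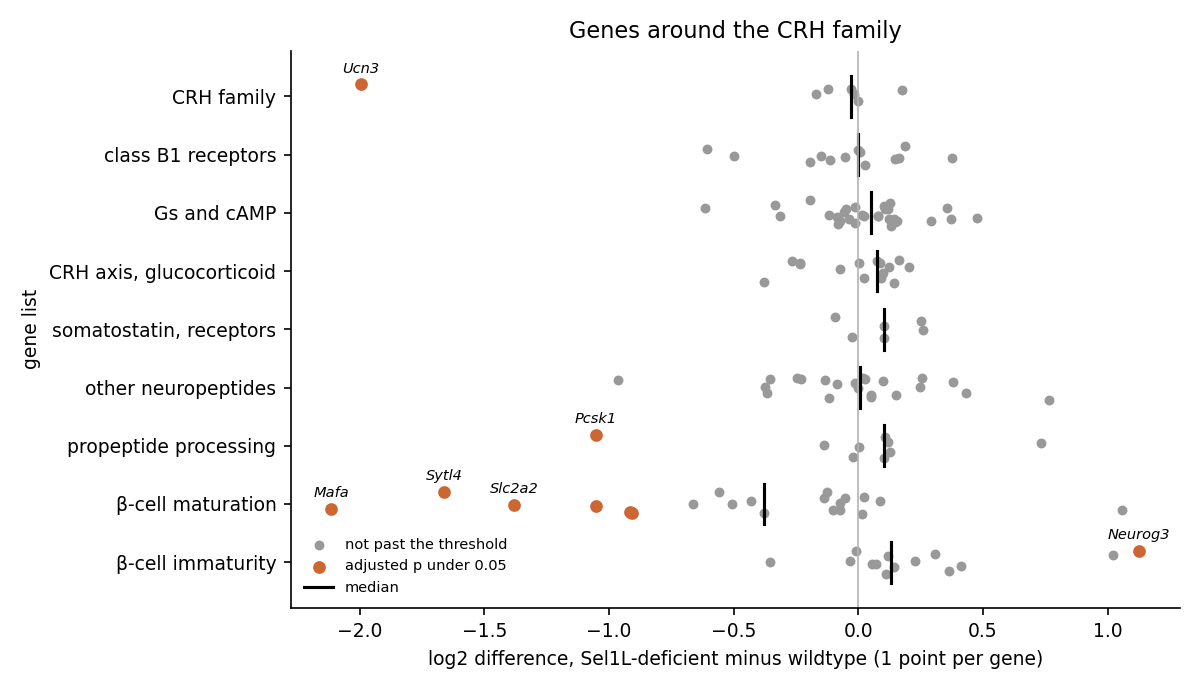
Log2 difference, Sel1L-deficient minus wildtype (horizontal axis), of every measured gene in the CRH family and in 8 related lists, with 1 point per gene and a bar at each list's median; orange marks an adjusted p under 0.05. Ucn3 is the only marked CRH family gene, and the β-cell maturation list holds 6 marked genes, all lower.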

How the data were processed

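Values are log2 summaries per probe set that the authors deposited, made with RMA per the submitters' processing notes. Its version, its filters and the log base are not given in the sources used here, and log2 was inferred because all values lay between 0.526 and 13.0. RMA can compress large ratios, and the table carries no detection calls. Of 41345 probe sets, 23521 carried 1 gene symbol in the platform annotation (possibly outdated), 1814 had several and 16010 were unnamed here. The probe set with the highest mean stood for its gene, which gave 22180 genes. Differences were tested by limma 3.58.1 under R 4.3.3 (two-sided, moderated by eBayes, Benjamini-Hochberg over all genes; threshold 0.05). Single per-array values were compared by exact permutation over the arrays. The number of arrays, 3 per genotype, limits the precision. The members, lists and tests were chosen with earlier results of these data known. Genes named besides the members were Sel1l, up to 4 called genes per list by adjusted p (or the 2 with the highest mean), and the 5 nearest to Ucn3. The islet hormone genes are named as a check of the tissue and the 9 β-cell markers as the parts of their mean. Other genes outside that rule are marked as chosen after their values were seen. Alternatives were leaving out arrays, other normalizations, probe-set rules, priors, weights and filters, a replicate block and a covariate for Y-linked transcripts.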

Additional observations from a re-analysis of the deposited data

How the results depend on the processing

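Leaving out 1 array gave differences of -2.17 to -1.87 for Ucn3 (adjusted p from 0.0181 to 0.0896, 2 of 6 fits past the threshold), -1.59 to -1.38 for Ucn3 minus the β-cell markers, -0.0274 to 0.0447 for Ucn, -0.0506 to 0.0118 for Ucn2, -0.25 to 0.0268 for Crh and -0.16 to 0.12 for Crhr1; Crhr2 and Crhbp kept their sign. Past the threshold were then 4 to 29 genes, 3 to 16 lower and 1 to 13 higher, against 54, 34 and 20 with all arrays. Signs also turned for Ucn under quantile normalization (0.00927) and for Ucn2 on the 4 arrays without Y-linked transcripts (0.00879), an alternative chosen after seeing the data. On those 4 arrays Ucn3 differed by -2.10, and 1 gene passed, 0 lower and 1 higher (1865 at an unadjusted p under 0.05); 2 arrays per genotype remain there. With 1 row per probe set Ucn3 differed by -1.995 (adjusted p = 0.148) and 3 probe sets passed, 3 lower and 0 higher; the cause was not tested. The trend and robust prior gave 133 genes, 89 lower and 44 higher. The replicate block gave 36 genes, 22 lower and 14 higher, with Ucn3 at -1.995 (adjusted p = 0.00981), and changed no other member's call. Deviations of same-numbered arrays correlated at 0.105, 0.072 and 0.21 across genes, and each array correlated best with its own number, a hint from the data and not the design. The highest, 0.21, belongs to the replicate 3 arrays. These share Y-linked transcripts and the highest acinar marker mean of their group (9.82 in wildtype and 9.78 in Sel1L-deficient islets). What these correlations reflect was not tested. Ucn2, Crh, Crhr1, Crhr2 and Crhbp could not be tested under the filter on low values. Of 256 list counts and medians under alternatives, 230 stayed within 1.5 times the count or 1 SD between replicates of the median. Outside these limits 21 counts were lower, 3 higher and 2 medians moved. Lists without a call in the main fit could hardly change their count. The count of the β-cell maturation list stayed within the limits in 9 of 16 alternatives and was lower in 7. Those of the immaturity and the peptide-processing lists each stayed within them in 8 and were lower in 7.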
